A study of Mus musculus with 6 samples.

Results

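The 7 genes with low probe set signal after anti-CD3 and a much higher signal after anti-CD3 plus anti-ICOS were Apol7c, Car1, Grk3, Mmp25, Tbc1d8, Anxa3 and Anpep. They are 7 of the 19937 genes of the table and were chosen by their values in this same contrast, as genes reading about 7 or lower on every anti-CD3 array and more than 1.5 higher in the mean of the anti-ICOS arrays. Values here are log2(intensity + 16) unless a sentence says intensity, and a difference is the anti-ICOS mean less the anti-CD3 mean. Because this contrast chose the 7 genes, their differences are a description and carry no test. The cells were CD4+ T cells of naive origin from the spleen of B6 mice, which all 6 cultures shared, as they did a first activation through CD3 and CD28 for 2 days and an overnight rest. The 2 anti-CD3 plus anti-ICOS cultures were then coated for 20 min with antibodies to CD3 and ICOS, and the 4 anti-CD3 cultures with antibody to CD3 alone, before cross-linking with a goat antibody to hamster immunoglobulin, which lasted 8 h. Each culture was hybridised to 1 Affymetrix Mouse Gene ST array. The labels call the cultures of a group biological replicates but give no age and no animal for each, so a p-value here reflects only how these arrays vary, which may be partly technical.

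ICOS is a costimulatory receptor of the CD28 family that T cells gain after activation, and it signals largely through PI3K alongside the T cell receptor. It is known for its part in follicular helper cells and in IL-10 production. Several of the 7 genes are better known from myeloid cells: Anpep encodes the surface aminopeptidase CD13 and Anxa3 a phospholipid-binding annexin abundant in neutrophils. Mmp25 encodes a membrane-anchored metalloproteinase first described in human leukocytes. Apol7c, a member of the apolipoprotein L family, is known from mouse dendritic cells, and Car1, a cytosolic carbonic anhydrase, from red cells and gut epithelium. Grk3 encodes a kinase that phosphorylates activated G protein-coupled receptors, and Tbc1d8 a protein with the TBC domain found in regulators of Rab GTPases.

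The arrays were checked first. Array median intensities lay between 109 and 114. Markers of the labelled CD4+ T cells gave signal on every array, with Cd4 at 11.95 and 12.00 with anti-ICOS, against 12.45, 12.42, 12.32 and 12.05 with anti-CD3. B cell genes read about as high on all arrays. The B cell receptor gene Cd79a read 12.10 and 12.25 with anti-ICOS against 12.18 to 12.35 with anti-CD3. Ms4a1, of the B cell list, read 11.67 and 11.80 with anti-ICOS against 11.36 to 11.81 with anti-CD3. How pure the cultures were is not known from these values. Anti-CD3 replicate 4 stood apart: the macrophage gene Adgre1 read 7.77 and 8.29 with anti-ICOS, and 8.10 in anti-CD3 replicate 4 against 6.21, 6.18 and 6.27 in replicates 1 to 3. Adgre1 was not typical of its list. Of 14 monocyte and macrophage genes, 5 were highest of the anti-CD3 group on that array. The list median of replicate 4 less the mean of the other anti-CD3 arrays was -0.065, with -0.036 over all genes. That median was 0.41 for the NK cell list, 0.29 for the B cell list and -0.12 for the neutrophil list. In bulk RNA, more cells of a type and more RNA per cell cannot be told apart.

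Apol7c had the widest separation of the 7. It read 10.36 and 9.65 with anti-ICOS, against 6.27, 6.24, 6.26 and 6.24 with anti-CD3, which as intensities is 1299 and 787.1 against 59.8 to 61.4. The 4 anti-CD3 arrays were nearly level while the anti-ICOS arrays differed from each other by 0.71. The group means were 10.01 ± 0.50 (SD, n = 2) and 6.26 ± 0.014 (SD, n = 4), a difference of 3.75, and the deposited mean intensity was 17.3-fold higher with anti-ICOS. No detection call was at hand, so whether the anti-CD3 values of Apol7c or the other 6 genes lie above background is unknown. The folds given are ratios of the deposited intensities and need not equal the ratio of RNA.

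The 2 enzymes Car1 and Anpep showed the same order of groups. Car1, which interconverts carbon dioxide and bicarbonate, read 8.47 and 8.16 with anti-ICOS, against 6.36, 6.14, 6.28 and 6.12 with anti-CD3. Here anti-CD3 replicate 4 was the lowest array of its group. The difference was 2.09 between means of 8.31 ± 0.22 (SD, n = 2) and 6.22 ± 0.12 (SD, n = 4), and mean intensity was 5.16-fold higher. Anpep, which trims N-terminal residues from peptides outside the cell, read 7.89 and 8.24 with anti-ICOS, against 6.23, 6.30, 6.36 and 6.38 with anti-CD3. Its difference was 1.75 between means of 8.07 ± 0.25 (SD, n = 2) and 6.32 ± 0.067 (SD, n = 4), or 3.99-fold in mean intensity.

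Mmp25, whose product cleaves matrix proteins at the cell surface, read 8.40 and 8.95 with anti-ICOS, against 6.57, 6.65, 6.77 and 7.15 with anti-CD3. Replicate 4 gave the only anti-CD3 value above 7 among the 7 genes, and the gap between the lowest anti-ICOS and the highest anti-CD3 array, 1.25, was the smallest of the 7. The difference was 1.89 between means of 8.67 ± 0.39 (SD, n = 2) and 6.78 ± 0.25 (SD, n = 4).

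Grk3, which through receptor phosphorylation recruits arrestins, read 8.53 and 8.29 with anti-ICOS, against 6.25, 6.40, 6.50 and 6.84 with anti-CD3. Replicate 4 was again the highest anti-CD3 array. The difference was 1.91 between means of 8.41 ± 0.16 (SD, n = 2) and 6.50 ± 0.25 (SD, n = 4). In mean intensity Grk3 was 4.31-fold and Mmp25 4.18-fold higher with anti-ICOS. Without replicate 4 the differences of Grk3 and Mmp25 were 2.03 and 2.01, and against replicate 4 alone they were 1.56 and 1.52.

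Tbc1d8 read 8.15 and 8.62 with anti-ICOS, against 6.53, 6.47, 6.66 and 6.68 with anti-CD3. Anxa3 read 7.83 and 8.03 with anti-ICOS, against 5.96, 6.26, 6.22 and 6.25 with anti-CD3. Replicate 1 lay below the other anti-CD3 arrays for Anxa3, and in neither gene did the groups overlap. The Tbc1d8 means were 8.38 ± 0.33 (SD, n = 2) and 6.58 ± 0.099 (SD, n = 4), and the Anxa3 means 7.93 ± 0.14 (SD, n = 2) and 6.17 ± 0.14 (SD, n = 4). Their differences were 1.80 for Tbc1d8 and 1.76 for Anxa3, which in mean intensity is 4.02-fold and 4.06-fold.

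**Figure D1:**
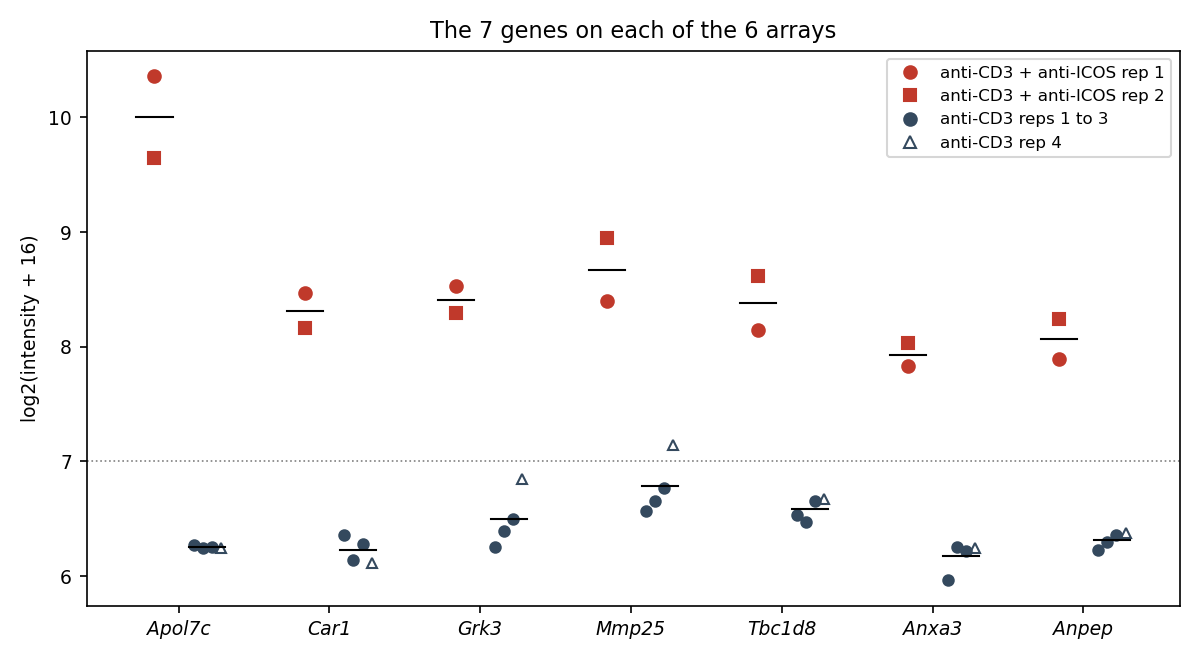
Value of each of the 7 genes on each array as log2(intensity + 16), with the anti-CD3 plus anti-ICOS arrays left of the anti-CD3 arrays, black bars at group means and a dotted line at 7. The lowest anti-ICOS value of the 7 genes was 7.83 and the highest anti-CD3 value was 7.15.

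The rule's numbers singled out few genes. Of 19937 genes 25 (0.125%) were more than 1.5 higher with anti-ICOS, and 12 (0.0602%) of these were also at most 7 on every anti-CD3 array. These 12 held 6 of the 7 genes, all but Mmp25, and 6 others. Anpep, at 1.75, was the named gene nearest to the limit on the difference. Just outside lay Csf2rb2 and Ccl17, with a highest anti-CD3 value of 7.32 and 7.02, and Cd63, with a difference of 1.48. The groups did not overlap in any of the 7 genes, which the rule largely fixes. Over all genes, 8.51% had both anti-ICOS values higher than every anti-CD3 value.

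The other 6 genes that met both numbers were Ifitm3, Klrb1b, Mpo, Rtp4, Cxcl16 and Ctsg. Mpo and Ctsg encode granule enzymes of neutrophil precursors, and both were far higher on 1 anti-ICOS array. Mpo read 7.27 and 9.12 with anti-ICOS, against 6.51, 6.39, 6.73 and 6.45 with anti-CD3. Ctsg read 6.73 and 8.17 with anti-ICOS, against 5.95, 5.74, 6.29 and 5.70 with anti-CD3. Rtp4, an interferon-induced gene, went the other way within the anti-ICOS group, at 8.40 and 7.69, against 6.11, 6.50, 6.11 and 6.98 with anti-CD3. Klrb1b, a lectin-like receptor gene of natural killer cells, was even between the anti-ICOS arrays at 8.53 and 8.62, against 6.73, 6.87, 6.97 and 6.998 with anti-CD3.

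The spread between the anti-ICOS arrays was not part of the rule, and it divided the 7 genes. Apol7c, Car1 and Grk3 were higher in anti-ICOS replicate 1, by 0.71, 0.31 and 0.23. Mmp25, Tbc1d8, Anpep and Anxa3 were higher in replicate 2, with replicate 1 minus replicate 2 at -0.55, -0.47, -0.35 and -0.20. Over all genes 44.4% were higher in replicate 1, with a median of -0.012. None of the 7 came near the most uneven granule genes, with replicate 1 minus replicate 2 at -1.85 in Mpo, -1.43 in Ctsg, -1.43 in Elane and -1.63 in Ngp. The other genes of the neutrophil list lay between -0.40 for Prtn3 and 0.17 for Ly6g, within the range of the 7. Over that list the median was -0.14. In anti-CD3 replicate 4 none of the 7 genes rose as far as Adgre1, which the rule largely fixes. That array exceeded the mean of replicates 1 to 3 by 1.88 for Adgre1 and by a median of 0.10 over the 7, with -0.036 over all genes. Among the 7 the values ran from -0.14 for Car1 to 0.46 for Grk3 and 0.48 for Mmp25. The rule, by holding every anti-CD3 array near 7, limits how far replicate 4 could lie above the rest.

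**Figure D2:**
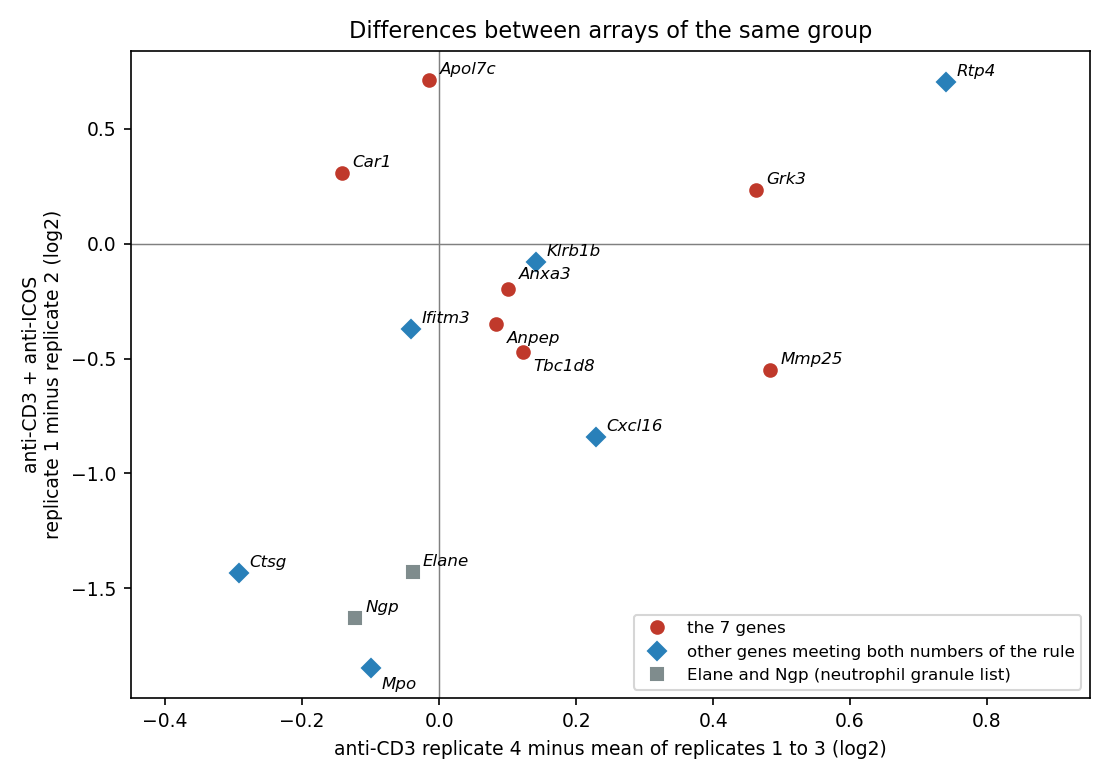
Differences within groups on the log2 scale for the 7 genes, the 6 other genes that met both numbers, and Elane and Ngp: the vertical axis is anti-ICOS replicate 1 minus replicate 2 and the horizontal axis anti-CD3 replicate 4 minus the mean of replicates 1 to 3. Mpo, Ngp, Ctsg and Elane lie between -1.85 and -1.43 on the vertical axis, while the 7 genes lie between -0.55 and 0.71. The other genes of the neutrophil list, between -0.40 and 0.17, are not drawn.

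Likeness between genes was measured as the Euclidean distance between their values over the 6 arrays, each gene centred on its own mean, and is a description over few arrays that share 2 groups. Tbc1d8 and Anpep were the closest pair of the 7, at 0.15, and Anxa3 and Anpep followed at 0.19. Apol7c was the farthest from the rest, at least 1.95 from each other gene, since its difference was larger. The gene nearest to Anxa3 was Klrb1b at 0.18, and the gene nearest to Grk3 was also Klrb1b, at 0.44.

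The 10 genes nearest to the mean profile of the 7 were Ifitm3, Csf2rb, Csf2rb2, Klrb1b, Fscn1, Ccl22, Zc3h12c, Cxcl16, Adam8 and Tmem176b, in that order and at distances of 0.48 to 0.87. Csf2rb and Csf2rb2 encode beta chains of the receptors for GM-CSF, IL-3 and IL-5, and being close paralogs they can share probe signal. Fscn1 encodes fascin, which bundles actin in the dendrites of mature dendritic cells, and Ccl22 a chemokine of the same cells that attracts T cells. Csf2rb2 read 9.51 and 9.43 with anti-ICOS, against 7.14, 6.95, 6.79 and 7.32 with anti-CD3. Fscn1 read 10.73 and 10.95 with anti-ICOS, against 8.20, 8.36, 8.05 and 8.79 with anti-CD3. In Ccl22 anti-CD3 replicate 4, at 8.59, lay well above replicates 1 to 3, at 7.58, 7.60 and 7.51, and below the anti-ICOS arrays, at 10.04 and 9.70.

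**Figure D3:**
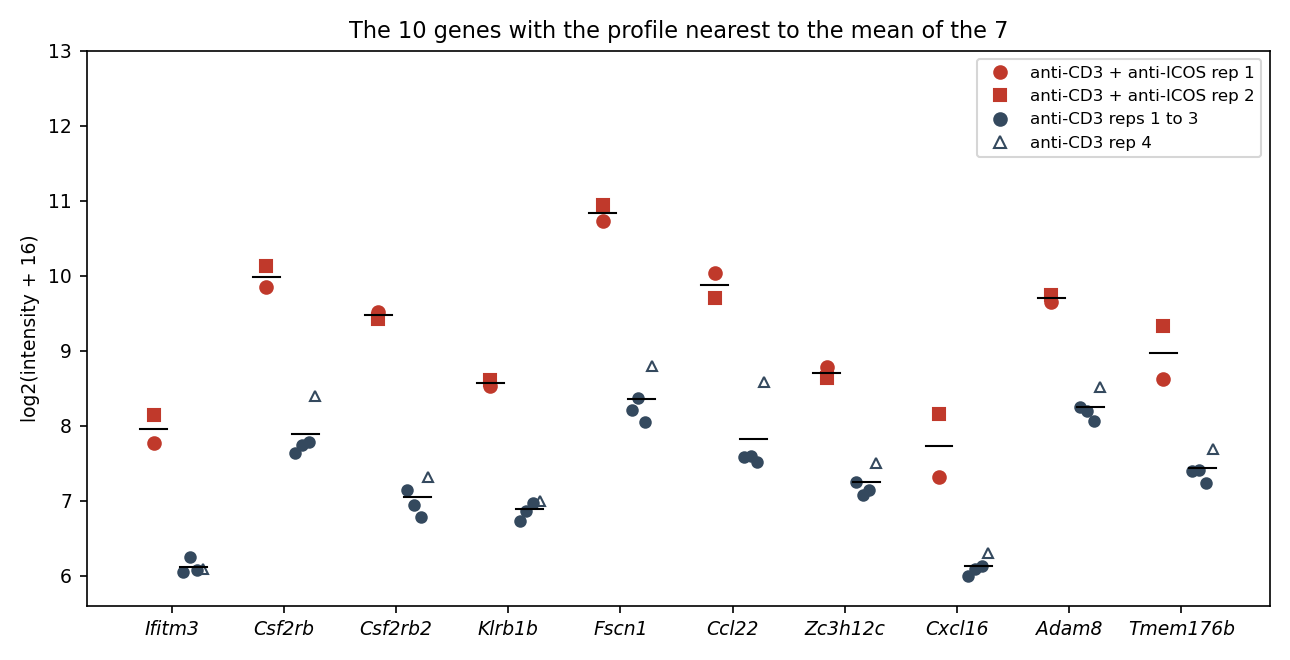
Values on each array, as log2(intensity + 16), of the 10 genes with a profile nearest to the mean profile of the 7, in order of distance from left to right, with anti-CD3 plus anti-ICOS arrays left of anti-CD3 arrays and black bars at group means. Both anti-ICOS arrays lie above all 4 anti-CD3 arrays in each, and anti-CD3 replicate 4 is the highest of its group in all but Ifitm3. The choice by likeness favours both, since the mean profile has the same order. Over all genes replicate 4 was the highest of its group in 34.5%.

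To see which cells or pathways share the pattern, 22 lists were set beside the 7 genes, without the 7 themselves: 12 of cell type markers and 10 of pathways or gene families. The background is low: limma, with Benjamini-Hochberg adjustment over all genes, called 54 of 19937 genes higher (0.271%) and 0 lower (0%). Before adjustment, 1245 genes were higher and 1110 lower at p under 0.05. Without anti-CD3 replicate 4 the share called higher was 17.1% and the share lower 12.7%, so counts without it are read against those. With replicate 4 as the only anti-CD3 array compared, 0.176% were higher. The median difference over all genes was -0.031.

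By median difference with all 6 arrays, mature dendritic cell genes stood highest among the marker lists. Of 20 measured genes, 2 rose (Fscn1 and Relb) and 0 fell, the median difference was 0.61, and 16 had both anti-ICOS values higher than every anti-CD3 value, against 8.51% of all genes. Fscn1 rose by 2.49 ± 0.20 (SE, limma adjusted p = 0.00547) and Relb, an NF-kB subunit needed by dendritic cells, by 0.67 ± 0.087 (limma adjusted p = 0.0455). The summed intensity of the list was 21484 and 21912 with anti-ICOS, against 14840 to 16748 with anti-CD3. Ccl22 and Ccl17, chemokine genes, differed by 2.05 and 1.60 without passing the test (limma adjusted p = 0.0746 and 0.0957). Il12b, at 6.49 and 6.62 with anti-ICOS against 6.35 to 6.78 with anti-CD3, and Ccr7, with a difference of -0.16, did not share the pattern. Without replicate 4, 16 of the 20 were higher and 1 lower, and with replicate 4 as the only anti-CD3 array 3 were higher. The rank depended on the arrays compared: against replicate 4 alone the list median was 0.39, below 0.56 for the 4 measured platelet genes. Relb no longer passed once any array but anti-CD3 replicate 4 was dropped (adjusted p up to 0.426) with an offset of 64, with a trended and robust prior, or with replicate 4 as the only anti-CD3 array (adjusted p up to 0.118 over these 3). Fscn1 no longer passed when anti-ICOS replicate 2 was dropped (adjusted p = 0.0641).

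Lineage genes of dendritic cells differed less. Of 20 measured, Flt3 and Sirpa rose, 0 fell, and the median was 0.12. Flt3, the receptor that drives dendritic cell development, rose by 1.26 ± 0.087 (limma adjusted p = 0.00321) to 8.05 and 8.26, against 6.86, 6.86, 6.89 and 6.997 with anti-CD3. Sirpa, an inhibitory receptor of myeloid cells, rose by 1.25 ± 0.12 (limma adjusted p = 0.00900), but it no longer passed once any array but anti-CD3 replicate 4 was dropped (adjusted p up to 0.127). Xcr1 and Clec9a, which define the cross-presenting subset, read 5.67 and 5.67, and 5.76 and 5.58, with anti-ICOS, against 5.80 to 5.93 and 5.47 to 5.69 with anti-CD3. Other genes of that subset in the list, Irf8, Wdfy4, Batf3, Cadm1, Naaa and Tlr3, differed by 0.53, 0.25, 0.18, -0.015, 0.0013 and -0.0065, none passing the test, and in Irf8 and Batf3 the groups did not overlap. Over the lineage list 8 of 20 had both anti-ICOS values higher than every anti-CD3 value and 1 had both lower, and 7 were called higher without replicate 4. The antigen presentation gene H2-Aa differed by 0.11. The summed intensity was 29594 and 32276 with anti-ICOS against 26981 to 29240 with anti-CD3. Of 9 plasmacytoid dendritic cell genes 1 rose, the chemokine receptor gene Ccr9, by 1.37 ± 0.095 (limma adjusted p = 0.00321), with a list median of 0.28, and 5 were higher without replicate 4. In 5 of these 9 both anti-ICOS values were higher than every anti-CD3 value.

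No other cell type list had a gene that passed the test with all 6 arrays. Without anti-CD3 replicate 4, where 17.1% of all genes were higher and 12.7% lower, higher calls were made in 10 of 12 NK cell genes, 7 of 14 monocyte and macrophage genes, 4 of 8 B cell genes, 4 of 16 neutrophil genes and 4 of 12 mast cell and basophil genes. In the erythroid, eosinophil, platelet and CD4 T cell lists 1 gene each was higher without it. Against replicate 4 alone 1 NK cell gene was higher. For neutrophil genes (0 of 16, median 0.20) the summed intensity was 1134 and 2038 with anti-ICOS against 935 to 1065 with anti-CD3, with the high array carried by Mpo, Elane and Ngp. Both anti-ICOS values were higher than every anti-CD3 value in 8 of the 16. Among the other neutrophil markers the differences ran between -0.20 for Camp and 0.45 for S100a8, with Mmp9 at 0.31, Mmp8 at 0.29, Lcn2 at 0.23, S100a9 at 0.0029 and Ly6g at -0.12. For monocyte and macrophage genes (0 of 14, median 0.28) it was 1729 and 2426 with anti-ICOS against 1175 to 1686 with anti-CD3, the top of that range being replicate 4. Erythroid genes, set beside Car1, had 0 of 12 and a median of 0.032: Klf1, the erythroid master regulator, read 6.47 and 6.52 with anti-ICOS against 6.25 to 6.56 with anti-CD3. Car2, also in this list, read 8.45 and 8.05 against 6.65 to 7.22, a difference of 1.27 (limma adjusted p = 0.0559). It was the only erythroid gene more than 0.5 higher, and the lowest difference was -0.34 for Hemgn. The remaining medians were 0.13 for mast cells and basophils (0 of 12), 0.23 for eosinophils (0 of 5), 0.38 for NK cells (0 of 12), 0.40 for platelets (0 of 4), 0.17 for B cells (0 of 8) and -0.11 for CD4 T cells (0 of 11). Both anti-ICOS values exceeded every anti-CD3 value in 5 of 12 mast cell and basophil and 5 of 12 NK cell genes. The counts were 2 of 5 for eosinophil, 3 of 4 for platelet, 0 of 8 for B cell and 4 of 14 for monocyte and macrophage genes. Large differences that failed the test included Tyrobp at 1.29, Fcer1g at 1.25, Il5ra at 1.01, Cpa3 at 1.00 and, with overlapping groups, Lyz2 at 1.89. The lowest in the mast cell, eosinophil and NK cell lists were -0.17, -0.26 and 0.044. The summed intensity of the CD4 T cell list was 33637 and 34639 with anti-ICOS, lower than on every anti-CD3 array, at 35279 to 38836. In 5 of its 11 genes both anti-ICOS values were lower than every anti-CD3 value, where 14.8% of all genes were, and 5 were called lower without replicate 4. The part of any of these cells in the values of the 7 genes was not tested.

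Among pathways, the receptor for GM-CSF, IL-3 and IL-5 had 2 of 18 genes that rose, with a median of 0.27. Csf2rb2 rose by 2.42 ± 0.15 (limma adjusted p = 0.00232) and Csf2rb by 2.09 ± 0.21 (limma adjusted p = 0.0157), though Csf2rb failed the test with any array but anti-CD3 replicate 4 dropped (adjusted p up to 0.150). The cytokine genes Csf2, Il3 and Il5 differed by 0.040, -0.074 and 0.024, and Cish, a target of STAT5, by 1.23 (limma adjusted p = 0.0884). Of 20 NF-kB targets 1 rose, Relb, with a median of 0.35. Of 21 interferon response genes 1 rose, Ifitm3, which restricts viral entry, by 1.84 ± 0.12 (limma adjusted p = 0.00232), and the median was 0.53. Without anti-CD3 replicate 4, higher calls were made in 17 of 21 interferon genes, 14 of 20 NF-kB targets and 10 of 18 genes of the GM-CSF, IL-3 and IL-5 list, against 17.1% of all genes. Both anti-ICOS values were higher than every anti-CD3 value in 15, 14 and 10 of them, in the same order. Interferon genes were higher in anti-ICOS replicate 1 than in replicate 2 in 19 of 21, as were Apol7c, Car1 and Grk3. Ifitm3 and Ddx58 were the exceptions. Over all genes 44.4% were higher in replicate 1. The lean to replicate 1 was not particular to interferon genes. Replicate 1 was also higher in 15 of 20 NF-kB targets, 13 of 18 genes of the GM-CSF, IL-3 and IL-5 list and 8 of 12 NK cell genes. Other lists leaned to replicate 2, as did Mmp25, Tbc1d8, Anpep and Anxa3. Replicate 2 was higher in 14 of 16 neutrophil genes, 9 of 12 mast cell and basophil genes and 8 of 8 B cell genes. It was also higher in 9 of 11 CD4 T cell genes and 13 of 20 dendritic cell lineage genes, among other lists. A link between any list and the 7 genes was not tested.

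Relatives of the 7 genes mostly did not share their pattern. In the apolipoprotein L family 0 of 6 measured genes passed, with a median of -0.084: Apol7a read 5.22 and 5.25 with anti-ICOS against 5.22 to 5.45 with anti-CD3, and Apol7d 6.46 and 6.52 against 6.36 to 6.60. Apol7b and Apol7e, among others, had no probe set with that symbol alone and are not analysed here, so shared probe signal among these close paralogs was not tested. Of 15 carbonic anhydrases 0 passed, with a median of -0.082, and Car2, a second cytosolic form, had the largest difference at 1.27 ± 0.18 (limma adjusted p = 0.0559). The families of Grk3 (0 of 9), Mmp25 (0 of 17), Anxa3 (0 of 11) and Anpep (0 of 11) had medians of -0.052, -0.0076, -0.067 and -0.078. The arrestin gene Arrb1, whose product binds receptors phosphorylated by such kinases, differed by -0.71, Anxa4 by 0.69, and Mmp9, a secreted gelatinase, by 0.31, none passing the test. In the TBC family 1 of 21 rose, with a median of 0.092: Tbc1d4, a regulator of glucose transporter traffic, by 0.71 ± 0.067 (limma adjusted p = 0.0103), which failed the test with anti-CD3 replicate 1, anti-CD3 replicate 2 or an anti-ICOS array dropped (adjusted p up to 0.150).

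**Figure D4:**
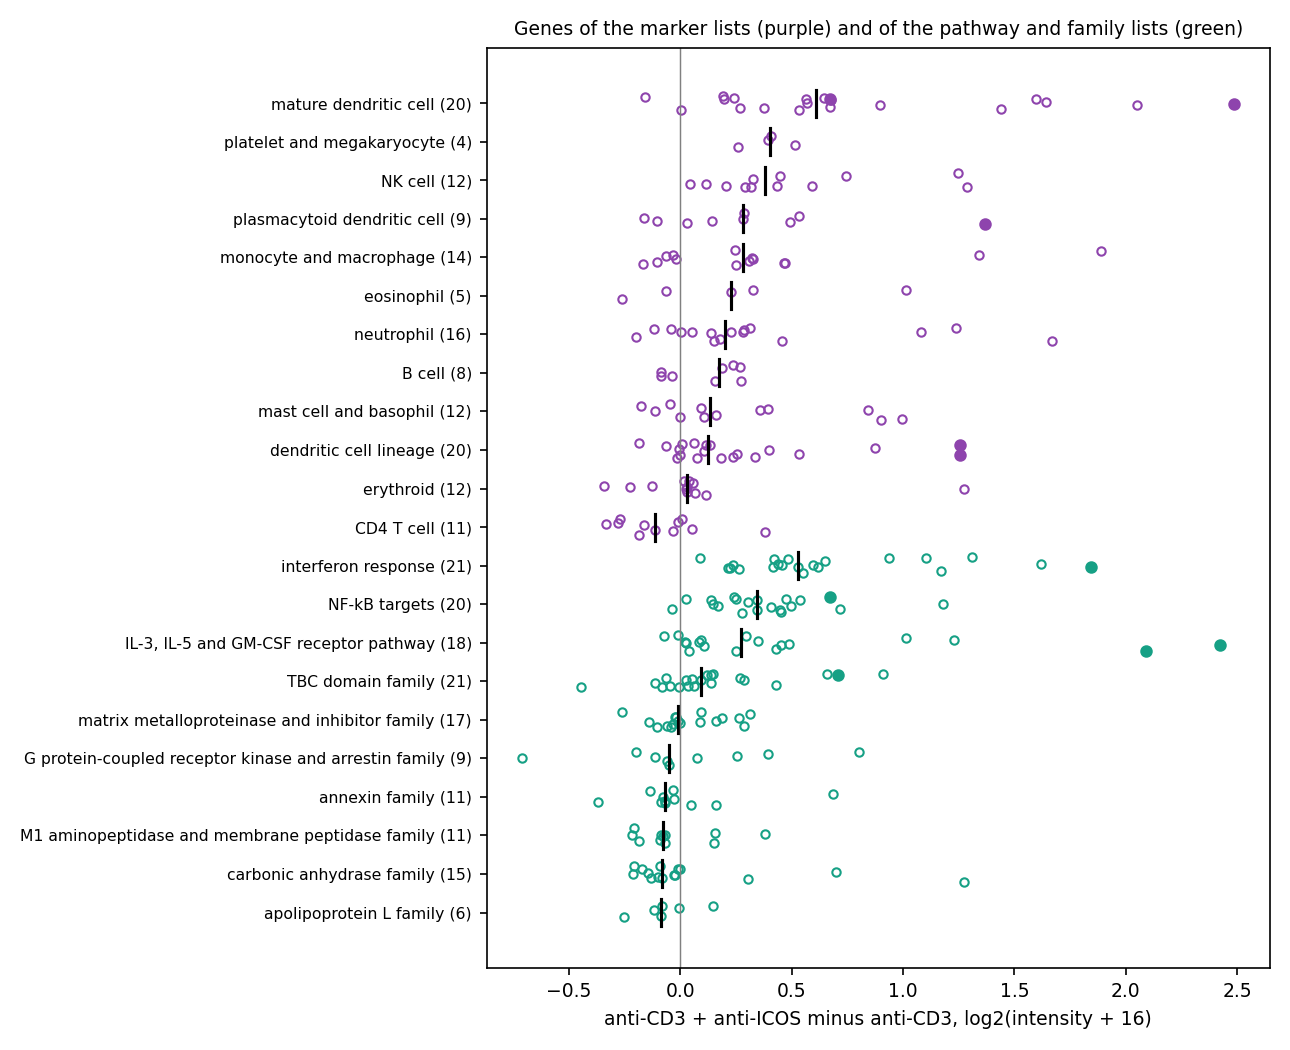
Difference of each gene, anti-ICOS mean less anti-CD3 mean on the log2(intensity + 16) scale, in the 12 marker lists and the 10 pathway and family lists, with the number of measured genes in brackets. Filled points passed limma's test over all genes, open points did not, black bars are list medians, and vertical scatter within a row has no meaning. The mature dendritic cell list has the highest median, 0.61, and the apolipoprotein L family the lowest of the pathway and family lists, -0.084.

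Promoters were available for 4 of the 7 genes (Apol7c, Mmp25, Tbc1d8 and Anpep) from RefSeq on GRCm38.p6, as 250 bases before to 50 bases after the transcript start, minus strand in all 4. The 6 motifs, chosen after the promoters had been seen and searched on both strands, were as follows. The interferon-stimulated response element was GAAA, any 2 bases and GAAA, and the composite element of PU.1 and IRF was GGAA, any 2 bases and GAAA. The PU.1 core was GAGGAA, the STAT site TTC, any 3 bases and GAA, the AP-1 site TGANTCA, and the loose NF-kB form GGG, any 5 bases and CC. The first and second can overlap each other. PU.1 and the IRF proteins act in myeloid and dendritic cells but are not confined to them, so a match does not point to a cell type. The promoters of Apol7c and Mmp25 are shown because they hold matches to elements of these factors. Capitals mark matches to any of the motifs but the NF-kB form.
Apol7c, chr15:77533266-77533565: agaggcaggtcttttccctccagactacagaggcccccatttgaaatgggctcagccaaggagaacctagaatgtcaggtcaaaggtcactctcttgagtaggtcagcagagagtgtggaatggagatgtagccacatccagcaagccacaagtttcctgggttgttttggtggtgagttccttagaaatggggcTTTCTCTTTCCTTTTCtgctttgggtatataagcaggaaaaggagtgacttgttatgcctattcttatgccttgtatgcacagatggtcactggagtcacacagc
Mmp25, chr17:23645220-23645519: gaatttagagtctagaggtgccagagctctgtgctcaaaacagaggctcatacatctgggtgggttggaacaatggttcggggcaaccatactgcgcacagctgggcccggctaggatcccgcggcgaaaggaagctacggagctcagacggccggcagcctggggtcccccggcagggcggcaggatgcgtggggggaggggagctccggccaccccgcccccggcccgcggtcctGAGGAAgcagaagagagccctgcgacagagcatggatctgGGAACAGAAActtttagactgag

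The capitals of Apol7c cover 2 overlapping matches to the interferon-stimulated response element, beginning 55 bases before the start, an element found in 3.49% of 27025 promoters. Mmp25 holds 1 PU.1 core, 13 bases before the start, and 1 composite element, 27 bases after it, found in 28.3% and 2.79% of promoters. Tbc1d8 holds 1 PU.1 core and Anpep none of the first 5 motifs. The NF-kB form occurs in all 4 promoters, as it does in 50.4% of all. No match to the STAT site (8.47% of promoters) or the AP-1 site (7.93%) lay in these 4 windows. A match says only that the letters are present.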

How the data were processed

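Total RNA of the 6 cultures (1 ug, per the labels' protocols) was labelled with biotin and read on 1-colour arrays. The authors deposited linear intensity values, 1 per probe set and array, from 7.23 to 22176. Per the submitters' processing notes MAS5 was used. How arrays were normalized, background-corrected or centred is not given in the sources used here. If arrays were set to equal levels, a shift shared by most genes is lost. Detection calls and depth are unknown, and the number of arrays limits the precision.

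The platform annotation gave 1 symbol for 21640 of 34760 probe sets, several for 1321 and none for 11799. Symbols were updated through RefSeq gene IDs (99.6% matched), and the brightest probe set stood for each of 19937 genes. Each of the 7 genes had 1 such probe set. Intensities were analysed as log2(intensity + 16), which understates differences of dim genes. Groups and replicate numbers came from the sample titles. The test was limma's (version 3.58.1, R 4.3.3; eBayes after lmFit over all genes), two-sided, with Benjamini-Hochberg adjustment over all genes and a threshold of 0.05, after the steps were tested on simulated data. Figures were drawn with matplotlib 3.10.9.

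The 7 genes and the lists (292 of 326 entries measured) were chosen with earlier results of these data known, so list counts are not independent support. The text names the 7 genes, the 10 genes nearest to their mean profile, the nearest gene of single members and genes meeting the rule's numbers. It also names some of the list genes of smallest p, more in some lists than in others. Other list genes, such as Adgre1, Elane, Ngp, Xcr1, Clec9a, Irf8, S100a8 and Prtn3, were named after their values were seen. The alternatives were offsets of 1 and 64, quantile normalization, a filter on the dimmest 40% of genes, averaging the probe sets of a gene, a trended and robust prior, array weights, a replicate block, each array left out in turn, and anti-CD3 replicate 4 as the only anti-CD3 array compared.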

Additional observations from a re-analysis of the deposited data

Results flagged for a closer look

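All 7 genes, the genes named by likeness or by the rule's numbers and all measured list genes, 299 in all, and 22 list means were checked in the 4 anti-CD3 arrays. In 27 of these 321 an array was set so far from the rest that its gap, as a share of the group's range, exceeded Dixon's limit, and chance alone gives about 1 in 20. Among the 7 genes only Anxa3 did so, with replicate 1 at 5.96. Replicate 4 was the array apart in 18 of the 27. It lay high for Adgre1 at 8.10, Lyz2 at 8.53, Ccl22 at 8.59, Socs2 at 9.44, Sirpa at 8.01, Cish at 8.42, Bcl2l1 at 7.68, Klra8 at 5.47 and Ddx58 at 10.67. It lay high too for Grk5 at 8.99, Tbc1d2b at 10.48, Tbc1d5 at 9.22, Tbc1d9b at 10.08, Tbc1d10a at 9.03, Tbc1d10c at 11.02 and Anxa6 at 11.41, and low for Nudt17 at 7.10 and Anxa2 at 10.17. Replicate 3 lay high for Mcpt4 at 5.37, Car5a at 6.71 and Mmp2 at 7.28, low for Ciita at 9.05 and Cd2 at 11.29, and was the array apart for the mean of the matrix metalloproteinase list, on the high side, at 6.53. Replicate 2 lay high for Ifitm3 at 6.24 and replicate 1 low for Tbc1d4 at 7.53.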

How the results depend on the processing

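The median difference of the 7 genes, 1.89, was 2.05 with an offset of 1, 1.48 with an offset of 64, 2.06 with the replicate block, 1.69 with anti-CD3 replicate 4 as the only anti-CD3 array, and between 1.66 and 2.01 with 1 array left out. None of 91 values of single genes under these alternatives changed sign, which the choice of the 7 genes largely fixes, and they ranged from 1.28 to 4.11. Of the 91 values 70 moved by less than 1 SD between replicates and 21 by more, 7 of these with an offset of 64 and 4 with an offset of 1. The 70 include the filter on dim genes and the averaging of probe sets, which left the values of the 7 genes unchanged. The trended and robust prior and the array weights are not among the 91. With all 6 arrays weighted alike 54 genes passed the test. The count was 28 with an offset of 64, 35 with replicate 4 as the only anti-CD3 array, 9414 with array weights and 6552 with the replicate block. With 1 array left out it lay between 16 and 5931, the highest without anti-CD3 replicate 4 and the lowest without anti-CD3 replicate 2, and was 18 and 20 without anti-CD3 replicates 1 and 3, and 36 and 26 without anti-ICOS replicates 1 and 2. The cause was not tested. The labels do not say whether same-numbered arrays share an animal or a batch. The correlations of their deviations were -0.039 for number 1 and 0.10 for number 2, over genes. With 2 anti-ICOS arrays the deviations of 1 mirror those of the other, so these values cannot settle pairing. With the block only numbers 1 and 2 bear on the contrast. Leaving out 1 anti-ICOS array leaves 1 array in that group, which is then assumed to vary like the others.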

Other observations

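Apol7c lies near the pair Csf2rb2 and Csf2rb on chromosome 15, and all 3 are among the genes with a difference over 1.5. In RefSeq gene order 13 protein-coding genes lie between Apol7c and Csf2rb2, of which 10 were measured. By limma 0 of these 10 were higher and 0 lower, with differences from -0.29 for Cacng2 to 0.30 for Foxred2 and a median of 0.045, and 2 of them had both anti-ICOS values higher than every anti-CD3 value, against 8.51% of all genes.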
